A study of Mus musculus with 4 samples.

Results

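Tuft cell transcripts were examined in sorted Lgr5-high intestinal stem cells from mice with and without the type I interferon receptor chain Ifnar1. The set is 10 genes widely used to mark this rare epithelial type. It was taken as a list and not by their values here, though with earlier results of these data known. The genes are Dclk1, Trpm5, Il25, Alox5ap, Gfi1b, Sh2d6, Rgs13, Ptgs1, Ltc4s and Avil. They are 10 of the 21368 genes that carried a symbol on the arrays. Of the 10, 9 had at least 1 named probe (11 probes in all). Sh2d6, an SH2-domain protein, had none matched by RefSeq accession, so its expression is not analysed here. Of the 9, 7 passed the filter on dim probes, which keeps a probe whose signal stood well above background throughout 1 group or the other. The other two, Gfi1b and Ptgs1, did not.

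Tuft cells are solitary chemosensory cells of the gut epithelium. They sense luminal signals through a taste-type cascade that ends in the cation channel Trpm5, and answer with the cytokine Il25, with leukotrienes and prostaglandins, and in part with acetylcholine. Il25 acts on group 2 innate lymphoid cells, whose interleukin-13 then drives stem cell progeny toward more tuft and goblet cells. The factor Pou2f3 is required for the lineage.

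The control group came from mice with the Lgr5-EGFP-Ires-CreERT2 knock-in, in which the Lgr5 locus drives a green fluorescent protein used for sorting. The knockout group carried the same knock-in on an Ifnar1-/- background (Ifnar1-/-:Lgr5-EGFP-Ires-CreERT2), and all animals were given poly(I:C), an RNA mimic of viral infection that provokes interferon, at 2 mg/kg daily for 1 week. No untreated group is analysed here, and the labels give no age for the animals. Each group had 2 samples on single-colour Agilent arrays, and replicate 1 of both groups shared slide 1 and replicate 2 slide 2. Whether the samples of a group come from different animals is not stated, so a p-value reflects only how far these samples spread, possibly for technical reasons.

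The arrays had 63.3% to 67.7% of non-control spots well above background, and 0 were saturated. Ifnar1, the targeted gene, was at -0.21 and -0.37 on the control arrays, against -1.76 and -2.28 on the knockout arrays (limma, adjusted p = 0.477, and 0.0494 with the slide as a block). All values are log2 signal with the 75th percentile of each array set to 0, which itself was 235 to 253 intensity units. Whether these probes fall inside the deleted part of Ifnar1 is not known here. Lgr5, which defines the sort, was at 3.04 and 2.82 on the control arrays, against 3.32 and 2.93 on the knockout arrays. Sorted bulk RNA cannot tell fewer tuft cells from less RNA per tuft cell.

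Tuft marker RNA was detected in these sorts, and no marker changed between the genotypes by the test over all genes. In 6 of the 9 markers a probe was well above background on all 4 arrays: Dclk1, Trpm5, Alox5ap, Rgs13, Ltc4s and Avil. Il25 was so on 3 arrays, Gfi1b on 2 and Ptgs1, which encodes the constitutive cyclooxygenase COX-1, on 0. The limma fit called 0 of the 7 markers tested, higher or lower, with an adjusted p of 1 for each and 0 at an unadjusted p under 0.05 (2.76% of all genes). Over all 24862 genes tested it also called 0, that is 0% in each direction, where an unadjusted p under 0.05 was reached by 258 higher and 427 lower genes. With the slide as a block, 0 of 7 markers were called, against 0.0322% of all genes higher and 0.33% lower, and the smallest adjusted p among the markers was 0.445, for Alox5ap. With 2 arrays against 2, an exact permutation test of a single gene cannot go below a two-sided p of 0.333.

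**Figure D1:**
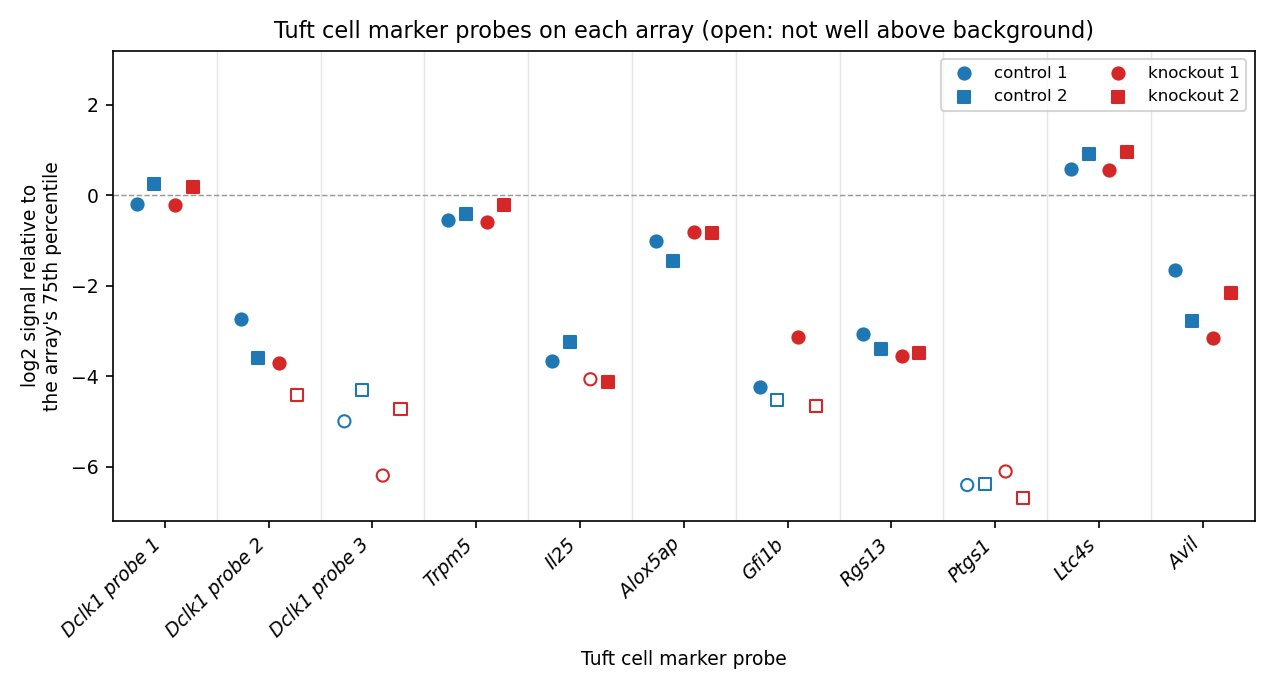
Log2 signal of each of the 11 marker probes, with each array's 75th percentile at 0 (dashed line), on 2 control (blue) and 2 knockout (red) arrays. Circles are slide 1, squares are slide 2, and open symbols were not well above background. Ltc4s, Trpm5 and the first Dclk1 probe repeat closely between genotypes, the Avil points cross over between slides, and Ptgs1 is open on all 4 arrays.

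The median of the 7 markers lay near that of all genes. The median difference, knockout minus control, was -0.04 (-0.04 on slide 1 and 0.04 on slide 2), beside 0.0243 over all genes tested (0.0333 and 0.0161). Within both slides 3 markers were lower in the knockout (Dclk1, Il25 and Rgs13), 1 was higher (Alox5ap) and 3 went opposite ways (Trpm5, Ltc4s and Avil). Over all genes those shares were 27.3% lower, 33.9% higher and 38.8% opposite. Both knockout arrays were below both control arrays for 2 of the 7 (11.5% of all genes) and above them for 1 (14.5% of all genes). The 2 were Il25 and Rgs13. Il25 passed the filter through the control alone, so its place in both counts of lower markers was favoured by the choice. The median turned to 0.15 without control 2 and to 0.16 without knockout 1, and it was -0.30 when the mean of a gene's probes stood for the gene.

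The spread between spots gave a second measure of error. It is the median SD of the log2 signal among spots of probes printed at least 10 times on an array, of which there were 399, taken over those within 0.5 log2 of the marker's own brightness. It was 0.06 to 0.12 for the bright markers Ltc4s, Trpm5, Alox5ap and the first Dclk1 probe, and 0.21 to 0.45 for the dim Il25, Rgs13, Gfi1b and second Dclk1 probe. The difference between 2 single spots carries the spread of both. This error covers printing and scanning on 1 array and leaves out sorting, amplification and the animals.

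**Figure D2:**
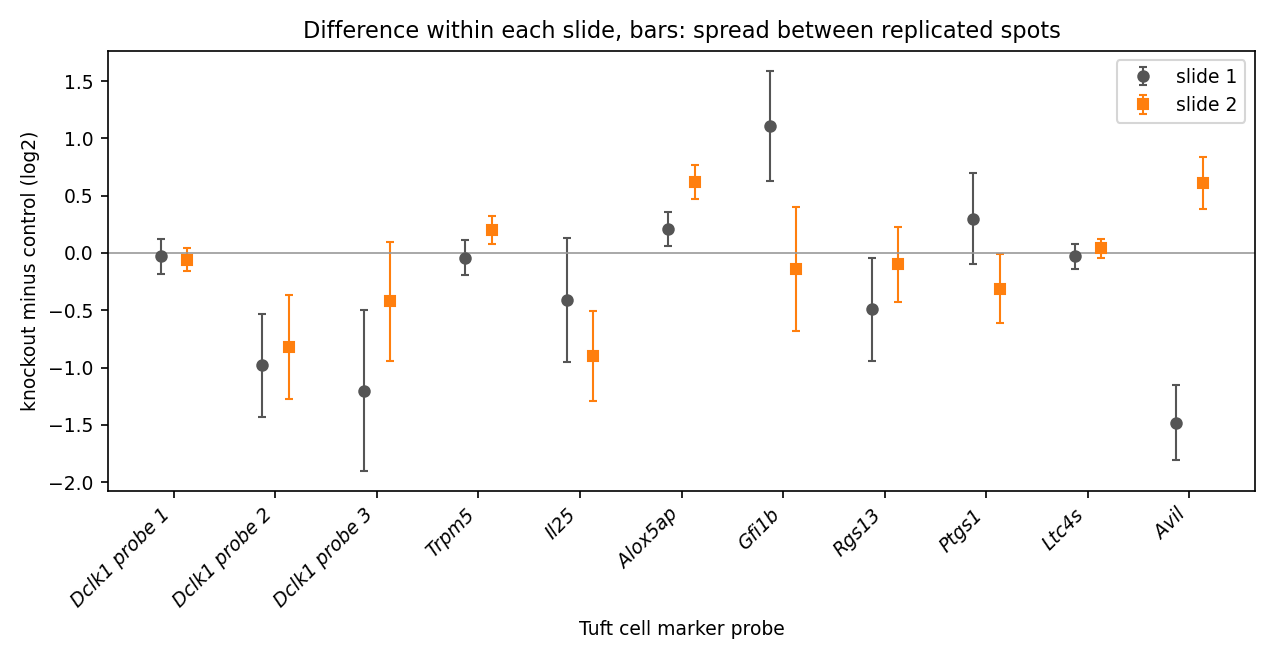
Knockout minus control within slide 1 (grey circles) and slide 2 (orange squares) for the 11 marker probes, on the log2 scale. Bars are plus and minus the spread between replicated spots of like brightness for a difference of 2 spots. Both Alox5ap points lie above 0 by more than their bars. Both points of the second Dclk1 probe lie below 0, the slide 2 point resting on a knockout spot not well above background, while the Avil points lie beyond their bars on opposite sides of 0.

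Dclk1, a microtubule-associated kinase and the most used tuft cell marker, gave different values by probe. The brightest probe, designed to NM_001111053, read -0.19 and 0.26 on the control arrays, against -0.22 and 0.19 on the knockout arrays. The 4 values overlapped between groups and followed the slide, slide 2 being higher in both genotypes. The difference was -0.04 (SE 0.278, 95% interval -0.73 to 0.65; limma, adjusted p = 1), and -0.38 to 0.29 was the interval with the slide as a block. It took the other sign without control 2 (0.18) and without knockout 1 (0.16).

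The second Dclk1 probe, designed to NM_019978, read -2.73 and -3.60 on the control arrays, against -3.70 and -4.42 on the knockout arrays, where 1 of 2 arrays was well above background. Here both knockout arrays were below both control arrays. The probe passed the filter through the control alone, so a lower knockout value was favoured by the choice. The slide 1 difference of -0.98, between arrays that were both well above background, was larger than the spot spread of 0.45, and the slide 2 difference of -0.82 rests on a knockout spot not well above background. With every probe as a row of its own, a setting chosen after seeing the data, the difference of -0.90 did not pass over 35417 probes (limma, adjusted p = 1, and 0.429 with the slide as a block). The third probe, also to NM_001111053, was not well above background on any array, so it gives no fold.

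RefSeq lists 2 start windows for Dclk1, shown because the probes of this gene disagree. Both are on the plus strand of GRCm38.p6, run from 250 bases before a start to 50 after it, and have the start base and what follows in capitals. The first is at chr3:55242114-55242413 and the second at chr3:55461478-55461777. Which start the transcript under each probe uses was not tested.
Dclk1 first start: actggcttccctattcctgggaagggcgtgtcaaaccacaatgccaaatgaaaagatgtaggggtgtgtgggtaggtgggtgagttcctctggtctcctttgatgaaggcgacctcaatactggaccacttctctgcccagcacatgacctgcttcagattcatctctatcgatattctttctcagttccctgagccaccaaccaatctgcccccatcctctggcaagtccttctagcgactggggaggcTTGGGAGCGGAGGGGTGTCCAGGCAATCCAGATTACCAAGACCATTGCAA
Dclk1 second start: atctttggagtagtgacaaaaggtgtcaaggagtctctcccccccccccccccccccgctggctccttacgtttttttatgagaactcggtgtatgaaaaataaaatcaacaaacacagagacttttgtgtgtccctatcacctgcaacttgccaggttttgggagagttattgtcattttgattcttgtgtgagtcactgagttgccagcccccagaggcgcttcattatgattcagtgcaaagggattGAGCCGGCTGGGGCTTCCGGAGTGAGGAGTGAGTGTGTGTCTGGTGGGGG

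Trpm5, the calcium-activated cation channel that depolarises the cell at the end of taste-type signalling, read -0.55 and -0.41 on the control arrays, against -0.59 and -0.21 on the knockout arrays. The groups overlapped. The difference was 0.08 (SE 0.254, 95% interval -0.55 to 0.71; limma, adjusted p = 1). It was -0.04 on slide 1, within the spot spread of 0.15, and 0.20 on slide 2, above the spot spread of 0.12. Without knockout 2 it was -0.11.

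Rgs13, which speeds the shut-off of G-protein signals, read -3.07 and -3.39 on the control arrays, against -3.56 and -3.49 on the knockout arrays. Both knockout arrays were below both controls. The differences were -0.49 against a spread of 0.45 on slide 1 and -0.10 against 0.33 on slide 2. The overall difference of -0.30 had a 95% interval of -1.25 to 0.65 (limma, adjusted p = 1), and it was -0.14 without control 1, -0.46 without control 2 and -0.09 with normexp background correction.

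Il25, the cytokine by which tuft cells call on type 2 immunity, had the lowest difference of the 7 markers tested. It read -3.66 and -3.24 on the control arrays, against -4.07 and -4.14 on the knockout arrays, and the groups did not overlap. On the linear scale the spots were at 19.2 and 26.1 units on the control arrays, against 14.0 and 14.4 on the knockout arrays, where 1 of 2 arrays was well above background. The gene passed the filter through the control alone, so a lower knockout value was favoured by the choice. The difference was -0.65 (95% interval -1.70 to 0.40; limma, adjusted p = 1, and 0.533 with the slide as a block), and it was -0.18 with normexp background correction, so its size depends on the background. It was -0.41 on slide 1, where the knockout spot was not well above background, within the spot spread of 0.54. On slide 2, where both spots were well above background, it was -0.90, above the spot spread of 0.39.

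Of the leukotriene genes, Alox5ap had a larger difference than Ltc4s, though neither was called and they were not tested against each other. Alox5ap, the protein known as FLAP that presents arachidonic acid to 5-lipoxygenase, read -1.02 and -1.45 on the control arrays, against -0.82 and -0.83 on the knockout arrays. Both knockout arrays were above both controls. The differences of 0.21 and 0.62 exceeded the spot spread of 0.15 on each slide, but the control samples differed from each other by as much as the groups did. Alox5ap was 1.33-fold higher by group means (difference 0.41, 95% interval -0.26 to 1.09, and -0.06 to 0.89 with the slide as a block; limma, adjusted p = 1 and 0.445). The Alox5ap difference was 0.63 without control 1, 0.20 without control 2 and 0.26 with normexp background correction.

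Ltc4s, the enzyme that joins glutathione to leukotriene A4, had the smallest difference of the 7 markers tested. It read 0.59 and 0.92 on the control arrays, against 0.56 and 0.96 on the knockout arrays, or 366, 467, 346 and 493 units on the linear scale. The slides separated the values and the genotypes did not. The differences of -0.03 and 0.04 were within the spot spreads of 0.11 and 0.08, and the interval of the overall difference was -0.62 to 0.62 (95%; -0.30 to 0.30 with the slide as a block). The sign of so small a difference was not settled: it was -0.16 without control 1 and 0.20 without knockout 1.

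Ptgs1 read -6.41 and -6.38 on the control arrays, against -6.11 and -6.69 on the knockout arrays, near 3 units on the linear scale (2.46 to 3.39). No array measured it well above background, so no fold is given. The lowest signal well above background on any array was between -4.60 and -4.26.

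Avil encodes advillin, an actin-binding protein of the villin family that tuft cells carry in their apical bundle. It read -1.66 and -2.77 on the control arrays, against -3.15 and -2.16 on the knockout arrays, all well above background. The control was the higher on slide 1 and the lower on slide 2. The differences of -1.48 and 0.61 were both larger than the spot spreads of 0.33 and 0.23, in opposite directions. The overall difference of -0.44 (95% interval -1.77 to 0.89; limma, adjusted p = 1) changed sign without control 1 (0.11) and without knockout 1 (0.05).

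Gfi1b, a zinc-finger repressor found in tuft cells and in blood lineages, read -4.24 and -4.53 on the control arrays, against -3.13 and -4.67 on the knockout arrays. Replicate 1 of each group, on slide 1, was well above background and replicate 2 was not, so the gene was not tested. Knockout 1 stood apart at 26.9 units on the linear scale against 9.95 to 12.9 on the other three arrays. The slide 1 difference of 1.11 was larger than the spot spread of 0.48, and the slide 2 difference of -0.14 was not larger than 0.54.

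**Figure D3:**
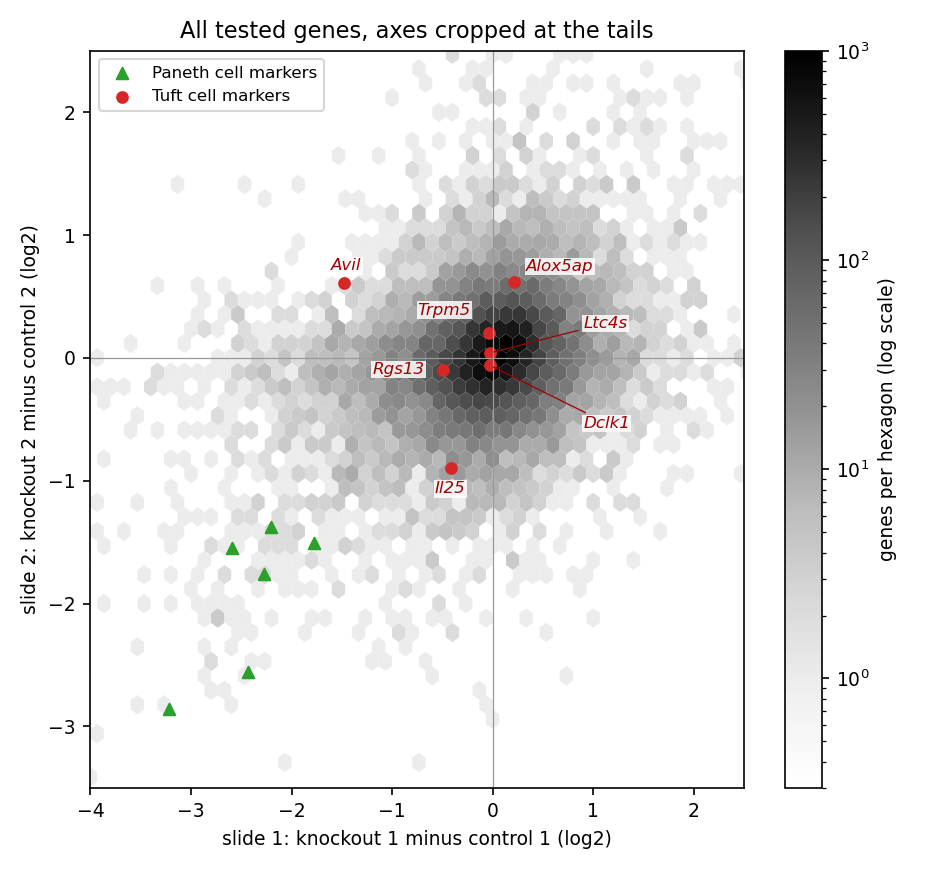
Knockout minus control on slide 1 (horizontal) against slide 2 (vertical), log2, for 24862 genes tested (grey density, log scale, 109 genes outside the axes). The 7 tuft markers (red) lie mostly near the centre, with Avil to the upper left, and the 6 Paneth cell markers (green) lie at the lower left, below -1 on both slides.

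The start windows of 8 markers were searched for interferon-related letters, since the groups differ in an interferon receptor. Il25 and Alox5ap had no window and were not searched, while Sh2d6, which had no probe, was. Each of the 9 windows (both of Dclk1 included; RefSeq, GRCm38.p6) spans 300 bases, searched on both strands. The interferon-stimulated response element, taken as TTTC repeated after 2 free bases, was in 0 of 9 (3.44% of 32851 windows of all genes), and the octamer ATTTGCAT read by POU factors was in 0 of 9 (1.74% of all windows). The gamma-activated site TTCNNNGAA was in 1 of 9 (8.3% of all windows). That match lies in Gfi1b, from -133 to -125 relative to the start. The window is shown for that reason, with the match in capitals, from the minus strand at chr2:28621933-28622232. A match is a description of letters and not of binding.
Gfi1b start: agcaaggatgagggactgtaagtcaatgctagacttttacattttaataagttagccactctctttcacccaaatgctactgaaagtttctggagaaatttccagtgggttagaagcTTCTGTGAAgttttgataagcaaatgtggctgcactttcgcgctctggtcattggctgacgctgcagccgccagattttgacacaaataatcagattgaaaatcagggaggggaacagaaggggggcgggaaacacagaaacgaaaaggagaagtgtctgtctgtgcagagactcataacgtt

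Among other genes of the tuft cell programme none passed the test either. A list of 36 was taken by role, of which 30 were tested and 0 were called (limma, with or without the slide as a block). At an unadjusted p under 0.05 there were 0 of 30 without the block (2.76% of all genes) and 4 of 30 with it (12.2% of all genes), a share near that background. The median of the 30 was 0.02 (0.00 on slide 1 and 0.23 on slide 2), beside the 0.0243 of all genes. On both slides 13 of the 30 were higher (33.9% of all genes), 8 lower and 9 opposite. Both knockout arrays were above both controls for 8 of the 30, or 4 in the cytoskeletal and other group, 2 in taste-type signalling, 1 among the transcription factors and 1 in the type 2 circuit (14.5% of all genes), and below for 3 (11.5% of all genes).

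Of 9 taste-type signalling genes, 7 were tested, with a median of 0.12. Gnb3, a G-protein beta subunit, read -3.81 and -3.59 on the control arrays, against -3.16 and -2.21 on the knockout arrays. Its groups did not overlap, and its difference of 1.02 was the largest of the 30 in size (limma, adjusted p = 1, and 0.365 with the slide as a block). Tas1r1, a subunit of the umami receptor, differed by 0.42, and Plcb2, the phospholipase that links the receptors to calcium release, by 0.31. Gng13, the gamma subunit of gustatory signalling, differed by -0.21. Gnat3, the alpha subunit gustducin, and Sucnr1, the succinate receptor by which tuft cells sense microbes, were not well above background on any array.

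Among 6 genes of eicosanoid synthesis, 4 were tested, with a median of -0.10. Pla2g4a, the phospholipase that frees arachidonic acid, differed by -0.14. Alox5, the lipoxygenase that works with the Alox5ap protein, read -4.2 and -3.6 on the control arrays, against -3.88 and -4.44 on the knockout arrays. All were well above background, but -4.44 lies near the lowest such signal on that array, -4.6. The differences of 0.32 on slide 1 and -0.84 on slide 2 give the gene no direction. Ptgs2, the inducible cyclooxygenase, read -4.03 and -1.53 on the control arrays, against -3.86 and -1.72 on the knockout arrays. Slide, not genotype, separated these values. The brighter probe of Ptges, a prostaglandin E synthase, differed by -0.05. Its dimmer probe read -3.90 and -3.98 on the control arrays, against -5.44 and -4.98 on the knockout arrays. Neither knockout array was well above background there, so no fold is given. That probe passed the filter through the control alone, so a lower knockout value was favoured by the choice. Hpgds and Tbxas1, the prostaglandin D and thromboxane synthases, were not well above background on any array.

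All 6 transcription factors were tested. Their median was 0.07, made up of -0.23 within slide 1 and 0.73 within slide 2. Pou2f3, the factor that tuft cells need, read -1.76 and -2.08 on the control arrays, against -1.71 and -1.01 on the knockout arrays. The knockout was higher, but by 0.06 on slide 1 and 1.07 on slide 2 (difference 0.56; limma, adjusted p = 1, and 0.485 with the slide as a block). Sox4, which acts early in the tuft and enteroendocrine lineages, differed by 0.14 and Hmx3, a homeobox factor, by 0.12. Runx1 differed by -1.96 on slide 1 and 0.89 on slide 2, and its other probe by 2.20 and 0.13, so no direction can be given for it. The first of these probes was well above background on 1 control array and 2 knockout arrays, so it passed the filter through the knockout alone. The other was so on 0 control arrays and 1 knockout array.

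In the type 2 circuit, Il17rb, a chain of the receptor for the Il25 product, read -3.38 and -3.99 on the control arrays, against -2.86 and -3.59 on the knockout arrays on its brighter probe, with overlapping groups (difference 0.46; limma, adjusted p = 1). The other probe differed by 0.08 and -0.12. Tslp, an epithelial alarmin, differed by 0.43, and its knockout arrays were above both controls. Il13ra1 differed by -0.25 and Il4ra, which pairs with it to bind interleukin-13, by -0.08. In the remaining group of 11, 9 were tested, with a median of 0.01. Cd300lf, an immune receptor found on tuft cells, read -2.51 and -2.73 on the control arrays, against -1.89 and -1.98 on the knockout arrays on its brightest probe (difference 0.69; limma, adjusted p = 1, and 0.362 with the block). Another probe to the same transcript went the other way, by -0.30 on slide 1 and -0.48 on slide 2. It was well above background on 2 control arrays and 1 knockout array. It thus passed the filter through the control alone, so a lower knockout value was favoured by the choice. The remaining Cd300lf probe differed by -0.18 on slide 1 and 0.42 on slide 2. That probe was well above background on only 1 array of each group, so it gives no direction. Krt23, a keratin, differed by 0.54, while the adaptor gene Fyb differed by -0.82. Chat, which makes acetylcholine, was not well above background on any array.

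**Figure D4:**
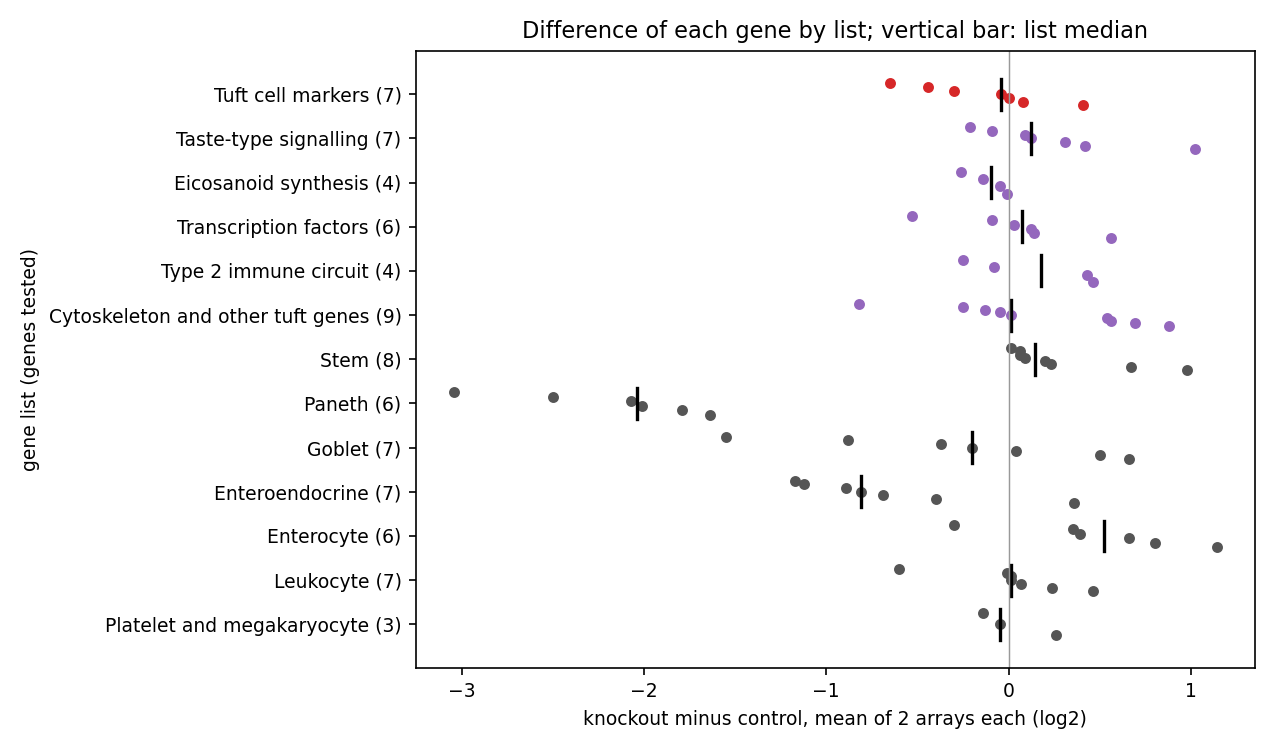
Knockout minus control of group means (log2) for each tested gene, in rows by list, with the number tested in parentheses and a vertical bar at the list median. The tuft markers (red) and tuft programme lists (purple) have medians between -0.10 and 0.17, while the Paneth list stands at -2.04.

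Several tuft genes are also made by other cells, so markers of these were read alongside. Of 7 mast cell markers 0 passed the filter, and Cpa3, Mcpt1, Mcpt2, Mcpt4 and Fcer1a were not well above background on any array. Their summed linear signal, in multiples of the 75th percentile, was 0.142 to 0.175 in the control, against 0.12 to 0.204 in the knockout. Of 6 platelet and megakaryocyte markers, Pf4, Ppbp and Gp9 were not well above background on any array, and the 3 tested had a median of -0.05. The 7 leukocyte markers had a median of 0.01, and their sum without Itgam, whose brightest probe outweighs the rest, was 2.17 to 2.42 in the control, against 2.28 to 2.46 in the knockout. The pan-leukocyte gene Ptprc differed by 0.07.

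Other epithelial markers, also listed with earlier results of these data known, were read in the same way. On slide 1 and on slide 2 alike, all 6 Paneth markers had the lower value in the knockout (27.3% of all genes). With the slide as a block 5 were called lower (0.33% of all genes), and 0 without it. The 6 had a median of -2.04. Their summed signal was 408 to 498 in the control, against 103 to 160 in the knockout. Enteroendocrine markers had a median of -0.81 (summed signal 8.14 to 12.2 and 4.43 to 7.14), goblet markers of -0.20, enterocyte markers of 0.52 and stem cell markers of 0.15, with 0 called in these 4 lists in either fit. The summed signal of the 9 tuft markers was 4.14 to 4.61 in the control, against 3.95 to 4.94 in the knockout, which overlapped. The brightest markers weigh most in such a sum. Without Ltc4s, the brightest, it was 2.63 to 2.72 in the control, against 2.48 to 2.99 in the knockout. The part of these other cells in the tuft marker values was not tested.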

How the data were processed

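The authors extracted total RNA from the sorted cells, amplified it by a whole-transcriptome method and labelled it with Cy3, per the labels' protocols. The deposited scanner files hold background-subtracted spot intensity on a linear scale from Agilent Feature Extraction 12.0.3.1, per the file headers; the submitters' processing notes name 11.5.1.1. Flags for outlier spots and for spots well above background were used as deposited. The deposited series table, also intensity, was each array's signal times 1 constant (5.60 to 6.68), with column medians of 223 to 249, and served as an alternative; the target of that scaling stays unknown. The headers name an mm9 design, so probe coordinates are not given.

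Control and outlier spots were left out, the signal was put on the log2 scale, each array's 75th percentile was subtracted and spots of a probe were averaged. Accessions without versions were matched to RefSeq (GRCm38.p6), naming 28331 of 55681 probes. The brightest probe stood for a gene. A probe was kept when well above background on both arrays of a group (35418 probes, 24862 genes). Groups were compared with limma 3.58.1 in R 4.3.3, with an intensity trend and Benjamini-Hochberg adjustment over all genes at 0.05. Tested on simulated data, the fit without a slide term missed most planted changes of the smaller sizes, and the fit with the block found most but also called some unchanged genes, so neither a missed call nor a call with the block is firm. The simulation gave genes of like brightness the same spread, which real genes need not have. The share found with the block may therefore be lower in the real data. The fit has no slide term; the slide, which is the replicate number and the scan per the file headers, was a block in the alternative. Samples on a slide deviated together (Pearson r of 0.563 across genes between the control and knockout differences of replicate 1 and 2; genes are not independent replicates). The number of arrays limits the precision.

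The 10 markers and the gene lists were chosen with earlier results of these data known. Named genes were the markers, Ifnar1, Lgr5, Pou2f3, Chat, Il17rb and up to 4 per list by smallest p; others named fill a count or were not well above background, and were chosen after their values were seen. Alternatives covered the block, scaling, background correction, the authors' table, the filter, the probe rule, outlier spots, the variance model and leaving out each array; fits with every probe as a row and with the block but no variance trend were added after seeing the data. A gene of the wider list is not reported here.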

Additional observations from a re-analysis of the deposited data

How the results depend on the processing

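No marker was called under any setting in which calls were made, and the smallest adjusted p was 0.445 among genes and 0.429 among single probes (the second Dclk1 probe), both with the replicate block (limma). The block, which pairs the samples of a slide, raised the count over all genes from 0 to 90, and to 0 again without a variance trend; leaving out 1 array gave 9 to 91 called genes. The markers' median of -0.04 was -0.30 with the mean of a gene's probes, since the dimmer Dclk1 probe then counts, and ran from -0.25 (without knockout 2) to 0.16 (without knockout 1) when 1 array was left out, with -0.14 without control 1 and 0.15 without control 2. Signs changed for Avil without control 1 (0.11) and without knockout 1 (0.05), for Dclk1 without control 2 (0.18) and without knockout 1 (0.16), and for Trpm5 without knockout 2 (-0.11), where leaving out 1 array gave ranges of -0.99 to 0.11, -0.27 to 0.18 and -0.11 to 0.27. Ltc4s, at 0.00, turned to -0.01 with quantile scaling and ran from -0.20 (without knockout 2) to 0.20 (without knockout 1), with -0.16 without control 1. The other 98 values of single markers did not reverse their sign and kept their side of the threshold. Many of them could not differ from the main value. A balanced block, a constant per array and a refit of the same probe leave a difference as it was. Their number is thus no measure of how stable the differences are. Size did change with the background correction and with leaving out 1 array. Normexp gave 0 for Dclk1, 0.26 for Alox5ap, -0.18 for Il25, -0.09 for Rgs13 and -0.22 for Avil. Normexp was run on the median foreground signal. No group is large enough for the test for single outlying samples. The dim markers Il25, Rgs13, Gfi1b and Ptgs1 lie near or below the lowest signal well above background, which limits what can be read from them.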
